A study of Homo sapiens with 6 samples.

Results

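Immediate-early genes of the AP-1 and EGR type were examined in Kasumi-1 cells, an established human acute myeloid leukaemia line with the RUNX1-RUNX1T1 fusion, with and without the nucleolar methyltransferase fibrillarin (FBL). The 10 genes FOS, FOSB, FOSL2, JUN, JUNB, JUND, EGR1, IER2, IER3 and DUSP1 were chosen by symbol, out of 31966 genes in the deposited count table, and each had 1 row there. All 10 passed the filter on low counts, which kept 18486 genes. The 3 control libraries came from cells with a doxycycline-inducible hairpin against luciferase (shLUC), and the 3 FBL knockdown libraries from cells with a doxycycline-inducible hairpin against FBL (shFBL). Both groups received doxycycline at 100 ng/ml for 72 h, so the drug is shared by the controls, and a single hairpin stands for each group. The labels do not say whether the lines are clonal or whether replicates were separate cultures, so the p-values speak only of sample-to-sample spread, part or all of which may be technical.

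Immediate-early genes are switched on within minutes of a signal, without new protein synthesis, and their short-lived messages fall again soon after. Many are induced through MAP kinases, which act on serum response factor with its ETS partners at CArG boxes and on CREB at cyclic AMP response elements. JUN proteins pair with each other or with FOS proteins to form AP-1, a family of leucine-zipper dimers that bind the element TGANTCA, whereas EGR1 is a zinc-finger factor with a GC-rich site. In myeloid cells AP-1 and EGR1 are known for their part in monocyte and macrophage differentiation.

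The libraries held 85556322 to 103148412 counts. The targeted FBL transcript stood at 580, 550 and 544 CPM in controls (the counts-per-million scale, on TMM-scaled library totals) and at 54.0, 32.4 and 44.9 CPM in knockdown libraries, so every library matched its label. All 8 blast markers were detected. The granule enzyme gene MPO (7256 CPM in controls, 5413 CPM after knockdown) and POU4F1 (9.89 and 7.07 CPM) were lower after knockdown and the stem-cell marker CD34 (2.54 and 4.04 CPM) higher, while RUNX1, RUNX1T1, KIT, SPI1 and CD33 were not called. The part of these marker changes in the results that follow was not tested. Markers of T cells, B cells, erythroid cells, stroma and epithelium summed to at most 1.72 CPM per list in any library. Transcripts of the mitochondrial genome took 12.4% to 15.2% of counts in controls and 14.7% to 18.8% in knockdown libraries. Mitochondrial ribosomal RNA alone took 1.31% to 1.40% and 2.04% to 2.51%, without overlap (exact permutation test p = 0.1), and its part in the results was not tested. Libraries also differed in how level varied with transcript GC content. Per 10 percentage points of GC the log2 level deviated by -0.14 in control replicate 1 and by 0.15 in control replicate 2, with the other 4 libraries between these, and the group means did not differ (exact 2-sided permutation test p = 0.9; the smallest p that 3 against 3 allows is 0.1). The 10 genes are GC-rich: their longest transcripts ranged from 52.6% GC for FOS to 69.7% for JUND, at the 61.1th to 99.5th percentile of tested genes.

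The promoters of the set were read for the elements named above. All genes but IER3, 9 of 10, matched a RefSeq promoter on GRCh38.p14, and the 250 bases before the annotated start were searched on both strands. A CArG box, the serum response element core, was found in EGR1 alone of the 9, which holds 2 of them, 105 and 83 bases before the start. Of 35114 promoter windows of the same length, 1.16% hold at least 1 CArG box and 0.0313% hold 2 or more. The cyclic AMP response element core TGACG was found in 9 of 9, against 21.2% of all windows. The full palindrome TGACGTCA, which contains that core, was in JUND and DUSP1, against 1.65%. The windows of the 9 genes held 62% to 74.8% GC, and the windows set against them were not matched for GC. The AP-1 element TGANTCA was in 0 of 9 (6.57% of all windows) and the EGR element GCGNGGGCG in EGR1 alone (8.41% of all windows). Longer variants of the AP-1 element were not searched, and the JUN window holds TGACATCA, which this pattern cannot match. A match describes letters in the window, not a bound site. Elements further upstream were not searched, so a gene without a match here may hold such an element there. The upstream windows of EGR1 and JUND are shown in full. EGR1 is the gene with CArG boxes inside its window. JUND is the most abundant of the 10 and 1 of the 2 with the full palindrome. Capitals mark CArG boxes, AP-1 elements (0 here) and TGACG or its reverse complement CGTCA, extended to TGACGTCA where the palindrome is complete. EGR1 lies at chr5:138465229-138465478, plus strand, and JUND at chr19:18281623-18281872, minus strand.
EGR1: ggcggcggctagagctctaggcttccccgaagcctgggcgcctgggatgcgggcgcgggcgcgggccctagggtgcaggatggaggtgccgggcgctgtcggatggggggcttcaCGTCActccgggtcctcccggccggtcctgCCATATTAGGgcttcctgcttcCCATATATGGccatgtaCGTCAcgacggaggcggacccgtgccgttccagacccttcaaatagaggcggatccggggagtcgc
JUND: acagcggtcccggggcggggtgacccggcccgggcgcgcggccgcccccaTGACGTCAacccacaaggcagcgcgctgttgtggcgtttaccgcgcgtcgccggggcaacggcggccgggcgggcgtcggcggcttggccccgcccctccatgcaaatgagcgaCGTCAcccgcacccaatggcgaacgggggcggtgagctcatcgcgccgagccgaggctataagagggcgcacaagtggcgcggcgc

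Short windows around the TGACG or CGTCA nearest to the start, in capitals, follow for 3 FOS-type genes and 2 JUN-type genes, since this core was the feature that all 9 promoters had in common. The FOS window (chr14:75278754-75278778, plus strand) and the FOSB window (chr19:45467926-45467950, plus strand) have the core 64 and 60 bases before the start. FOSL2 (chr2:28392782-28392806, plus strand) has it at 66 bases, JUN (chr1:58784156-58784180, minus strand) at 123 bases and JUNB (chr19:12791339-12791363, plus strand) at 137 bases. The RefSeq starts of FOS, FOSL2 and JUN lie inside the GENCODE genes whose coordinates are given below, so the FOSL2 and JUN windows lie within those genes and the FOS window lies partly so.
FOS: gttgagcccgTGACGtttacactca
FOSB: aaggggcgggTGACGtaagcagggg
FOSL2: agtctggggtTGACGtgagtgaatc
JUN: gtctccatggTGACGggcgggcccg
JUNB: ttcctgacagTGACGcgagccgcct

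Knockdown against control asked how these messages stood once FBL was depleted. EGR1, IER2, FOSL2, JUNB and JUN were lower after knockdown, by 1.51-fold to 1.85-fold, while FOSB was 1.52-fold higher. FOS and JUND were at higher mean levels and DUSP1 and IER3 at lower ones, without passing the test. In edgeR's quasi-likelihood test with Benjamini-Hochberg adjustment over all 18486 genes, 6 of 10 genes passed an adjusted p of 0.05, 5 lower and 1 higher, where 32.8% of all tested genes passed, 17.0% lower and 15.8% higher. A stricter filter on low counts kept 8 of the 10 genes, of which 6 passed, where 4055 of all 9176 genes kept passed. Under upper-quartile scaling 3597 of all genes were higher and 2528 lower, in place of 2920 and 3141. The 3 controls and the 3 knockdown libraries did not overlap for 8 of the 10 genes, where 45.2% of all tested genes had groups that did not overlap. Leaving out 1 library at a time kept 4 or 5 genes lower, but gave 0 higher without control replicate 3 and without FBL knockdown replicate 1 or 2, and 3 higher without control replicate 2. Over all genes 6061 passed, with 3923 without FBL knockdown replicate 2 and 4017 without FBL knockdown replicate 3. The median log2 fold change was -0.40 over the 10 genes and -0.01 over all tested genes. Bulk RNA cannot tell fewer cells with a message from less message per cell.

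**Figure D1:**
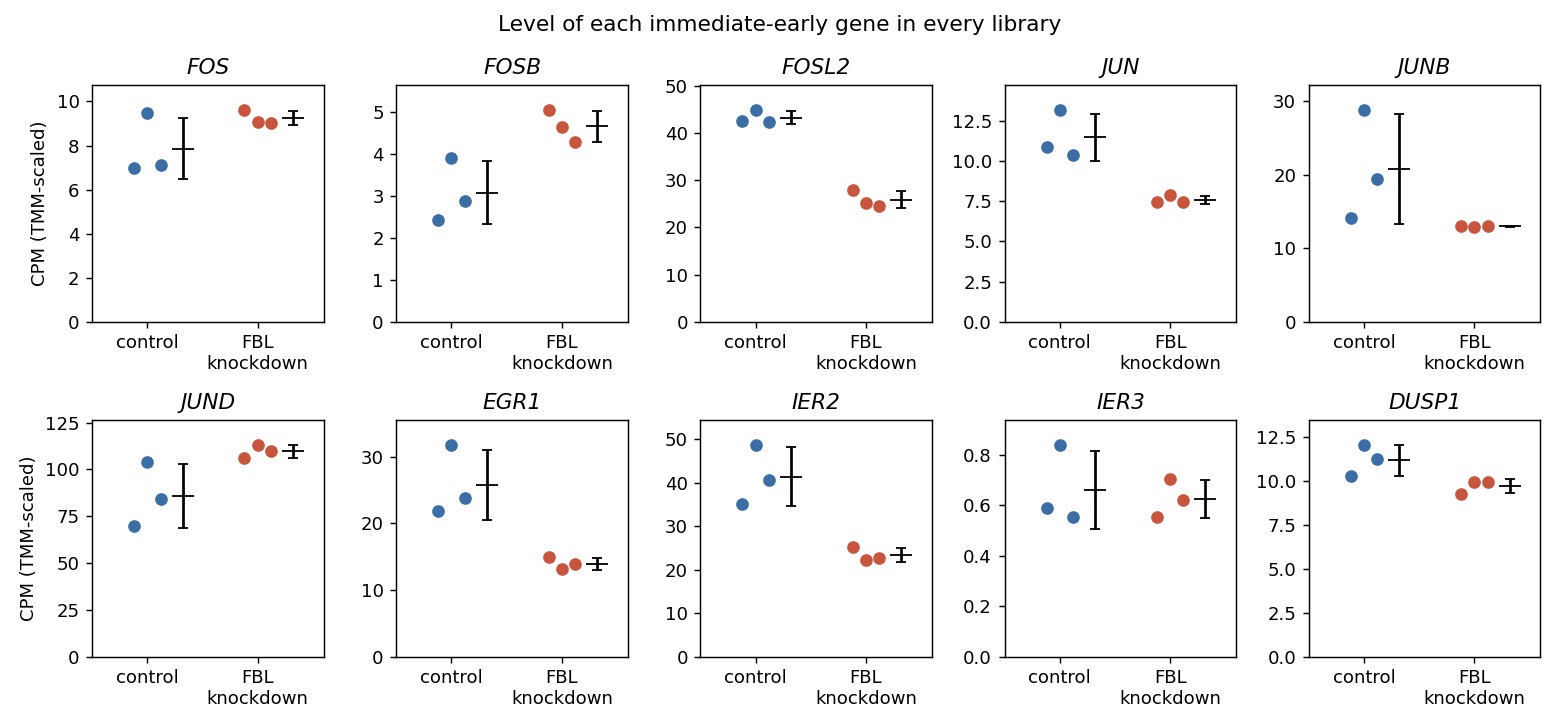
Level of each of the 10 genes in CPM (vertical axis, from 0) in the 3 control libraries (blue) and the 3 FBL knockdown libraries (red), left to right by replicate number, with the mean and SD in black. EGR1, IER2, FOSL2, JUN, JUNB and DUSP1 sit lower in all 3 knockdown libraries than in any control and FOSB and JUND higher, though DUSP1 and JUND did not pass the test, and the control points of JUNB spread from 14.1 to 28.8 CPM.

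EGR1 (ENSG00000120738, chr5:138465490-138469315, plus strand, 2 exons), the zinc-finger factor of the set, stood at 21.9, 31.7 and 23.8 CPM in controls and at 14.9, 13.1 and 13.8 CPM after knockdown. Every knockdown library lay below every control. Its log2 fold change was -0.89 ± 0.13 (SE, n = 3 against 3; edgeR adjusted p = 0.000678). It passed in all 20 alternative settings tried. In the reported fit it was the largest change of the 10, but without control replicate 2 it was -0.71, where FOSB was at 0.81 and FOSL2 at -0.71.

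IER2 (ENSG00000160888, chr19:13150415-13154908, plus strand), an immediate-early nuclear protein, stood at 34.96, 48.6 and 40.6 CPM in controls and at 25.1, 22.2 and 22.6 CPM after knockdown. The groups did not overlap, and the log2 fold change was -0.83 ± 0.12 (SE, n = 3 against 3; edgeR adjusted p = 0.000508). The antisense gene AC011446.2 shares 946 exonic bases with IER2, and reads of the pair cannot be told apart where no strand is recorded. AC011446.2 was at 8.74, 18.9 and 13.0 CPM in controls and at 6.43, 6.06 and 6.27 CPM in knockdown libraries.

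Among the FOS-type genes, which give the partner that cannot pair with itself in AP-1, the direction was mixed. FOSL2 (ENSG00000075426, chr2:28392448-28417312, plus strand, 4 exons) encodes FRA2, the FOS relative known for lasting expression after a stimulus. It was at 42.6, 44.8 and 42.2 CPM in controls and at 27.9, 25.2 and 24.6 CPM after knockdown. The 2 groups lay far apart beside their spread (43.2 ± 1.4 and 25.9 ± 1.8 CPM; SD, n = 3 each), with a log2 fold change of -0.74 ± 0.09 (SE, n = 3 against 3; edgeR adjusted p = 0.00015).

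FOSB (ENSG00000125740, chr19:45467995-45475179, plus strand, 4 exons) encodes a FOS relative with a well-known truncated, stable splice form that gene counts do not separate. It was at 2.43, 3.90 and 2.89 CPM in controls and at 5.04, 4.65 and 4.30 CPM after knockdown. The groups did not overlap, and the log2 fold change was 0.60 ± 0.16 (SE, n = 3 against 3; edgeR adjusted p = 0.0167). The call was lost on leaving out control replicate 3 (adjusted p = 0.0713), FBL knockdown replicate 1 (0.0535) or FBL knockdown replicate 2 (0.062). FOSB lies within the span of ERCC1 on the other strand, with 0 shared exonic bases, and ERCC1 stood at 193 to 231 CPM in controls and 210 to 241 CPM after knockdown.

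FOS itself (ENSG00000170345, chr14:75278774-75282230, plus strand, 4 exons), the founding member and the textbook early-response transcript, did not pass. It was at 6.99, 9.46 and 7.13 CPM in controls and at 9.60, 9.08 and 9.02 CPM after knockdown, so that control replicate 2 lay among the knockdown libraries. The log2 fold change was 0.23, with a 95% interval from -0.05 to 0.51 (edgeR adjusted p = 0.184). Without control replicate 1 it was 0.15 (adjusted p = 0.396), without control replicate 2 it was 0.38 (adjusted p = 0.00877), and after a per-library correction for GC content 0.27 (adjusted p = 0.0478).

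JUN-type genes, which can pair with themselves or with FOS proteins, also parted. JUN (ENSG00000177606, chr1:58780788-58784327, minus strand, 1 exon), the strongest activator of the family, was at 10.9, 13.2 and 10.4 CPM in controls and at 7.46, 7.89 and 7.42 CPM after knockdown. All knockdown libraries were below all controls, with a log2 fold change of -0.60 ± 0.11 (SE, n = 3 against 3; edgeR adjusted p = 0.00224).

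JUNB (ENSG00000171223, chr19:12791496-12793315, plus strand, 1 exon), a weaker activator that can oppose JUN, was at 14.1, 28.8 and 19.5 CPM in controls and at 13.0, 12.9 and 13.0 CPM after knockdown. The groups did not overlap, but the gap between control replicate 1 and the knockdown libraries was small beside the spread of the controls, 20.8 ± 7.4 CPM (SD, n = 3). The log2 fold change was -0.68 ± 0.20 (SE; edgeR adjusted p = 0.0243), and -0.37 without control replicate 2, the highest. The call was lost without control replicate 3 (edgeR adjusted p = 0.0502) and without FBL knockdown replicate 1, 2 or 3 (0.0574, 0.0943 and 0.0926), as well as with a replicate block (0.0567). JUNB shares 259 exonic bases with HOOK2 on the other strand, which stood at 9.23 to 13.0 CPM in controls and 7.98 to 10.1 CPM after knockdown.

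JUND (ENSG00000130522, chr19:18279760-18281622, minus strand, 1 exon), the JUN relative that resting cells express and that is least inducible, was the most abundant of the 10. It was at 69.8, 104 and 84.1 CPM in controls and at 106, 113 and 110 CPM after knockdown. The groups did not overlap, and the log2 fold change of 0.35 (95% interval 0.08 to 0.63) narrowly missed the threshold (edgeR adjusted p = 0.0518). It passed in 8 of 20 alternative settings, among them upper-quartile scaling (0.42, adjusted p = 0.0255), GC correction (0.29, adjusted p = 0.00887), DESeq2 (0.36, adjusted p = 0.0415) and the fit without control replicate 2 (0.51, adjusted p = 0.000417). Without control replicate 1 it was 0.22 (adjusted p = 0.123).

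DUSP1 (ENSG00000120129, chr5:172768090-172771195, minus strand, 4 exons) encodes the nuclear phosphatase that switches MAP kinases off again. It was at 10.3, 12.03 and 11.2 CPM in controls and at 9.23, 9.92 and 9.91 CPM after knockdown. Although the groups did not overlap, the log2 fold change of -0.21 (95% interval -0.42 to 0.01) did not pass (edgeR adjusted p = 0.13), nor did it in any of 20 alternatives.

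IER3 (ENSG00000137331, chr6:30743199-30744554, minus strand, 1 exon), a stress-induced regulator of cell survival, was near the floor, with 55, 82 and 56 counts in controls and 51, 65 and 55 after knockdown. The groups overlapped, and the 95% interval of its log2 fold change ran from -0.55 to 0.40 around -0.08 (edgeR adjusted p = 0.81). Leaving out each library gave values from -0.20 to 0.13. IER3-AS1, which shares 359 exonic bases with it, was as weak, at 0.35 to 0.51 CPM in controls and 0.43 to 0.50 CPM after knockdown.

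**Figure D2:**
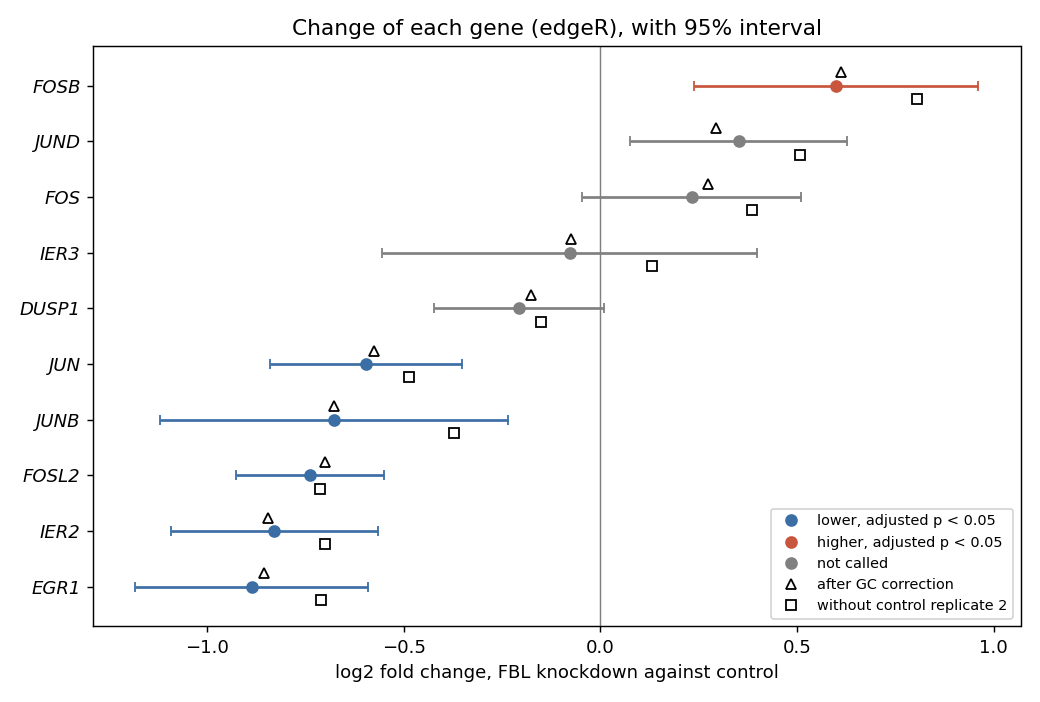
Log2 fold change of the 10 genes (horizontal axis, FBL knockdown against control) with the 95% interval from edgeR; blue and red circles passed an adjusted p of 0.05 and grey ones did not. Triangles give the value after GC correction and squares the value without control replicate 2, which moved FOS to 0.38 and JUNB to -0.37.

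For all of these genes but FOSL2 the SD of the controls was larger than that of the knockdown libraries. Control replicate 2 was higher than control replicate 1 in all 10, from 1.05-fold for FOSL2 to 2.04-fold for JUNB, while the median of all tested genes was 0.962-fold. After each group's mean was subtracted, the log2 levels of the 45 pairs of genes had a median Pearson correlation of 0.78 over the 6 libraries, with JUNB and JUND the closest pair (0.99) and FOSL2 and DUSP1 the least alike (-0.12). The same median was not computed for pairs of other genes, so 0.78 is not shown to be particular to this set. Genes outside it reached higher values, such as FOXD1 with FOS (0.999). Control replicate 2 was also the library with the steepest rise of level with GC content (0.15 per 10 percentage points), and the part of GC content in this shared spread was not tested. After GC correction the same 5 genes passed as lower, and FOS, FOSB and JUND as higher. Calls rose over all genes too: that setting called 8484 of 18486 tested genes, 4179 higher and 4305 lower. The reported fit called 6061, with 2920 higher and 3141 lower.

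Levels of different genes can be compared per length, on the deposited RPKM scale (reads per kilobase of gene, per TMM-scaled library total). In controls JUND led with 46.2 ± 9.3 RPKM (SD, n = 3), ahead of IER2 (13.5 ± 2.3), JUNB (11.5 ± 4.1), EGR1 (8.23 ± 1.70) and FOSL2 (6.05 ± 0.21). DUSP1 (5.54 ± 0.46), JUN (3.25 ± 0.43), FOS (2.43 ± 0.44), FOSB (0.56 ± 0.14) and IER3 (0.49 ± 0.12) followed. Across the controls the values of IER2 and JUNB, of JUNB and EGR1, of FOSL2 and DUSP1 and of FOSB and IER3 overlapped. Within each control library, however, the gene named first in each of these pairs was the higher. The margin was slight for IER2 over JUNB in control replicate 2 (15.92 and 15.91 RPKM). It was also slight for FOSB over IER3 in control replicate 1 (0.437 and 0.434 RPKM). After knockdown JUND stood at 58.7 ± 1.1 RPKM, and the order of weaker genes differed: DUSP1 (4.78 ± 0.13) was above EGR1 (4.43 ± 0.35) and FOSL2 (3.61 ± 0.30), and FOS (2.85 ± 0.14) above JUN (2.14 ± 0.06). DUSP1 and EGR1 overlapped there (4.64 to 4.86 against 4.12 to 4.82 RPKM), whereas FOS and JUN did not.

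The make-up of the 2 AP-1 families was set out as shares of the family's summed RPKM within each library, a ratio that does not depend on library scaling. JUND made up 77.6%, 74.0% and 76.8% of JUN-type message in controls and 86.0%, 86.7% and 86.4% after knockdown. JUNB took 16.0%, 21.0% and 18.2% in controls and 10.8%, 10.2% and 10.5% after knockdown, and JUN 6.36%, 4.94% and 5% against 3.18%, 3.19% and 3.08%. For each of the 3 genes the groups did not overlap (exact 2-sided permutation test p = 0.1, the smallest that 3 against 3 allows; 0.117 after Benjamini-Hochberg adjustment over the 7 shares of both families). The summed RPKM of the JUN family was 60.9 ± 13.8 in controls and 67.9 ± 1.1 after knockdown (SD, n = 3 each; exact permutation test p = 0.4).

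The summed RPKM of the FOS family was 13.4, 16.9 and 14.4 in controls and 13.2, 11.96 and 11.4 after knockdown, without overlap (exact permutation test p = 0.1). In this family FOSL1, which encodes FRA1 and was added to complete it, took 39.2% ± 2.6 in controls and 40.1% ± 0.7 after knockdown (SD, n = 3 each; exact permutation test p = 0.8). FOS took 16.1%, 17.4% and 15.3% in controls and 22.8%, 23.2% and 24.2% after knockdown. FOSL2 went the other way, with 44.4%, 37.3% and 40.9% in controls and 30.0%, 29.1% and 29.8% after knockdown, and FOSB took 3.27%, 4.19% and 3.61% against 6.99%, 6.92% and 6.71%. The groups did not overlap for FOS, FOSB or FOSL2 (exact permutation test p = 0.1 each, 0.117 adjusted). Shares of a sum are linked, so a higher share of 1 gene does not show that its level rose.

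**Figure D3:**
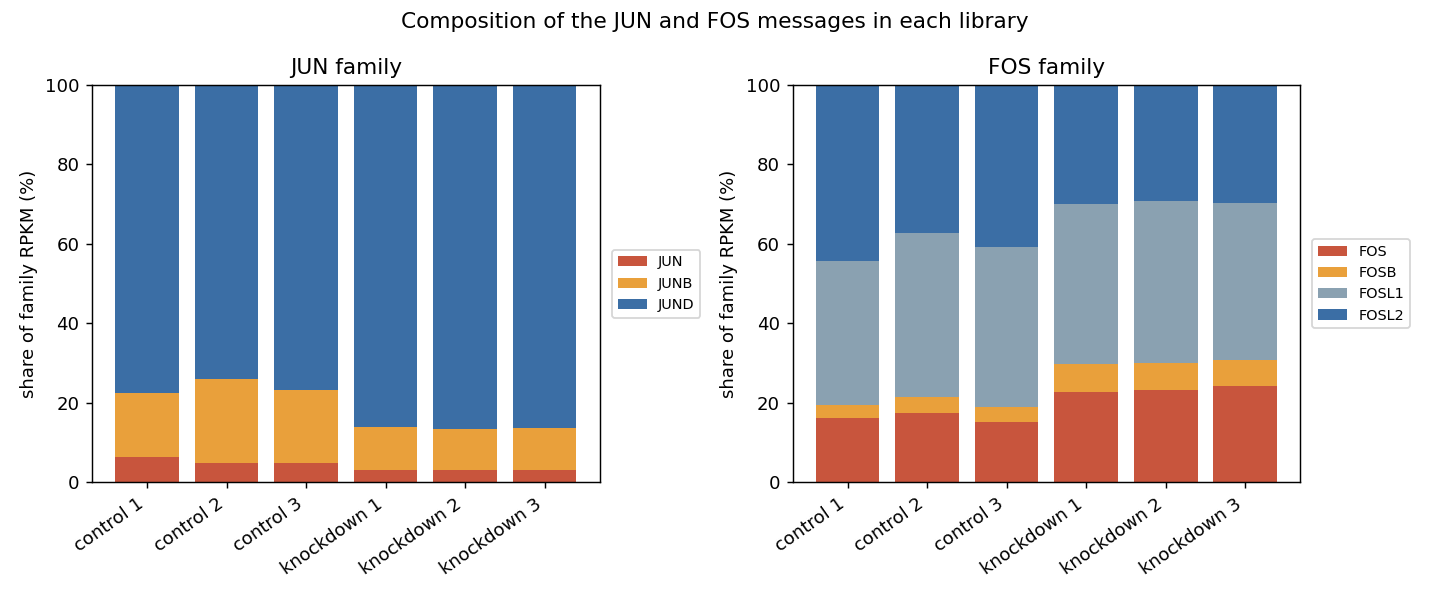
Share of the summed RPKM of the JUN family (left) and the FOS family (right) held by each gene (vertical axis, percent) in each of the 6 libraries. JUND holds 74.0% to 77.6% of the JUN family in controls and 86.0% to 86.7% after knockdown, and FOSL2 holds 37.3% to 44.4% of the FOS family in controls and 29.1% to 30.0% after knockdown.

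All 10 genes together took 226, 281 and 245 CPM of the unscaled library total in controls and 212, 216 and 223 CPM after knockdown, a difference of -33.8 CPM (exact 2-sided permutation test p = 0.1, the smallest possible). Without JUND they took 165 ± 16 CPM in controls and 108 ± 2.9 CPM after knockdown (SD, n = 3 each). The difference for all 10 was -18.5 CPM without control replicate 2.

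Genes around the immediate-early set were read from 8 lists of 138 genes, of which 134 were found. Called genes beyond the examples of each list were named after their values were seen. Among 12 tested members of the list of other AP-1 and MAF leucine-zipper genes, 1 rose and 3 fell, with a median log2 fold change of -0.14. That is 4 of 12 called, near the 32.8% of all tested genes. BATF2, an interferon-responsive partner of JUN proteins, rose by 1.14 ± 0.16 (log2 fold change ± SE) at a low mean of 1.87 CPM. The small MAF protein MAFK fell by 0.63 ± 0.18 and the stress-induced ATF3 fell by 0.33 ± 0.11 (edgeR adjusted p = 0.0183 and 0.0373), and CREB5, under 1 CPM, was the other lower gene. ATF3 lost its call in 11 of 20 alternatives, among them the fits without control replicate 1, 2 or 3 (adjusted p = 0.0569, 0.053 and 0.0741) and without FBL knockdown replicate 2 or 3 (0.0776 and 0.204). MAFK lost it in 5, among them the fits without FBL knockdown replicate 2 or 3 (0.0923 and 0.0933), and stood at -0.37 without control replicate 2.

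Of the 6 EGR family and NAB genes 1 rose and 1 fell (median -0.07), or 2 of 6 called, near the 32.8% of all tested genes. NAB2, a corepressor that binds EGR1 and is itself EGR1-inducible, was at 52.0 ± 3.6 CPM in controls and 35.3 ± 4.2 CPM after knockdown (SD, n = 3 each), a log2 fold change of -0.56 ± 0.10 (SE; edgeR adjusted p = 0.00206). Its relative NAB1 was at -0.07 ± 0.11 (adjusted p = 0.664). EGR2, the member that rose, lay under 1 CPM and is named as the single higher gene after its value was seen (1.09 ± 0.27; 0.23 ± 0.04 CPM in controls and 0.50 ± 0.13 CPM after knockdown).

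Of 30 other immediate-early genes tested 9 rose and 7 fell (median 0.06), where 15.8% of all tested genes were higher and 17.0% lower. The DNA-binding inhibitor ID3 rose by 1.10 ± 0.13 and the antiproliferative BTG2 by 0.83 ± 0.12, while ID1 fell by 0.86 ± 0.10 (log2 fold change ± SE, n = 3 against 3). KLF10, BTG1, ID2, PLK3, HBEGF, ETS2 and PPP1R15A were also higher, and RHOB, MYC, MCL1, IER5, GADD45B and TNFAIP3 lower. The edgeR adjusted p of ID3, ID1 and BTG2 ranged from 0.000183 for ID3 to 0.000512 for BTG2. For the other called genes it ran from 0.000408 for RHOB to 0.0426 for MYC, with PPP1R15A (0.0386) and ETS2 (0.0387) also close to the threshold.

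The factors and kinases that act on these promoters were listed next. Of 14 genes for serum response factor, its cofactors and CREB-type activators 3 rose and 1 fell (median 0.12), or 4 of 14 called, near the 32.8% of all tested genes. SRF itself, chosen here after its value was seen, was at 170 ± 10 CPM in controls and 171 ± 16 CPM after knockdown. The CREB coactivator CRTC3 rose by 0.60 ± 0.09, the acetyltransferase CREBBP by 0.50 ± 0.11 and ATF1 by 0.33 ± 0.11 (edgeR adjusted p = 0.000528, 0.00677 and 0.0458). The SRF coactivator MRTFA was the gene that fell. ATF1 lost its call in 10 of 20 alternatives, among them the fits without control replicate 2 or 3 (adjusted p = 0.0986 and 0.133) and without FBL knockdown replicate 1, 2 or 3 (0.0551, 0.156 and 0.0919). In the MAP kinase cascade 5 of 23 genes rose and 5 fell (median 0.01), beside 15.8% and 17.0% of all tested genes. Examples were the ribosomal S6 kinase RPS6KA1 at 0.66 ± 0.08, the JNK kinase MAPK9 at 0.52 ± 0.09 and the p38 activator MAP2K3 at -0.48 ± 0.10 (edgeR adjusted p from 0.000187 to 0.00527). BRAF, MAP2K2 and MAPKAPK2 were also higher, and MAP2K1, MAPK14, RPS6KA4 and MAP2K6, the last under 1 CPM, lower.

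Among 18 MAP kinase phosphatases and feedback inhibitors 3 rose and 3 fell (median 0.01), so that 6 of 18 were called, near the 32.8% of all tested genes. DUSP6, the cytoplasmic phosphatase of ERK whose message follows ERK activity, was at 18.7 ± 0.6 CPM in controls and 10.6 ± 0.3 CPM after knockdown (SD, n = 3 each), a log2 fold change of -0.83 ± 0.09 (SE; edgeR adjusted p = 8.65e-05). DUSP14 rose by 0.41 ± 0.08, and the RAS-RAF inhibitor SPRED1 fell by 0.38 ± 0.11 (edgeR adjusted p = 0.00303 and 0.0203). SPRED2 and SPRED3, the latter under 1 CPM, were also higher, and the ETS factor ETV5 lower. The other 12 genes of the list were not called, among them DUSP4, DUSP5, SPRY1, SPRY2 and ETV4. The SPRED1 call was lost without control replicate 3 (adjusted p = 0.068) and without FBL knockdown replicate 1 or 3 (0.0572 and 0.0935), as well as with a replicate block (0.084).

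Proteins that bind AU-rich elements or shorten the tails of messages with them were examined because such elements speed the decay of immediate-early messages. Of 11 such genes 2 rose and 5 fell, with a median of -0.21, beside 15.8% higher and 17.0% lower over all tested genes. HNRNPD, which encodes the decay factor AUF1, fell by 0.93 ± 0.09 (edgeR adjusted p = 7.26e-05), from 109 ± 11 to 57.5 ± 2.6 CPM (SD, n = 3 each). The deadenylase PARN fell by 0.49 ± 0.14 and CNOT7, a deadenylase of the CCR4-NOT complex, rose by 0.46 ± 0.10 (edgeR adjusted p = 0.0192 and 0.00489). ZFP36L2 was also higher, and ELAVL1, KHSRP and CNOT8 lower. PARN lost its call without control replicate 1 (adjusted p = 0.0546) and without FBL knockdown replicate 2 or 3 (0.091 and 0.0603), as well as with a replicate block (0.0523).

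Of 13 known AP-1 target genes tested 3 were higher and 3 lower (median 0.13), beside 15.8% and 17.0% of all tested genes. The nuclear lamin gene LMNA was at -0.79 ± 0.13, the chemokine gene CXCL8 at -0.79 ± 0.13 and the intermediate filament gene VIM at 0.62 ± 0.14 (log2 fold change ± SE; edgeR adjusted p = 0.00109, 0.00125 and 0.00663). CD44 and LGALS3 were also higher, and PLAUR lower.

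**Figure D4:**
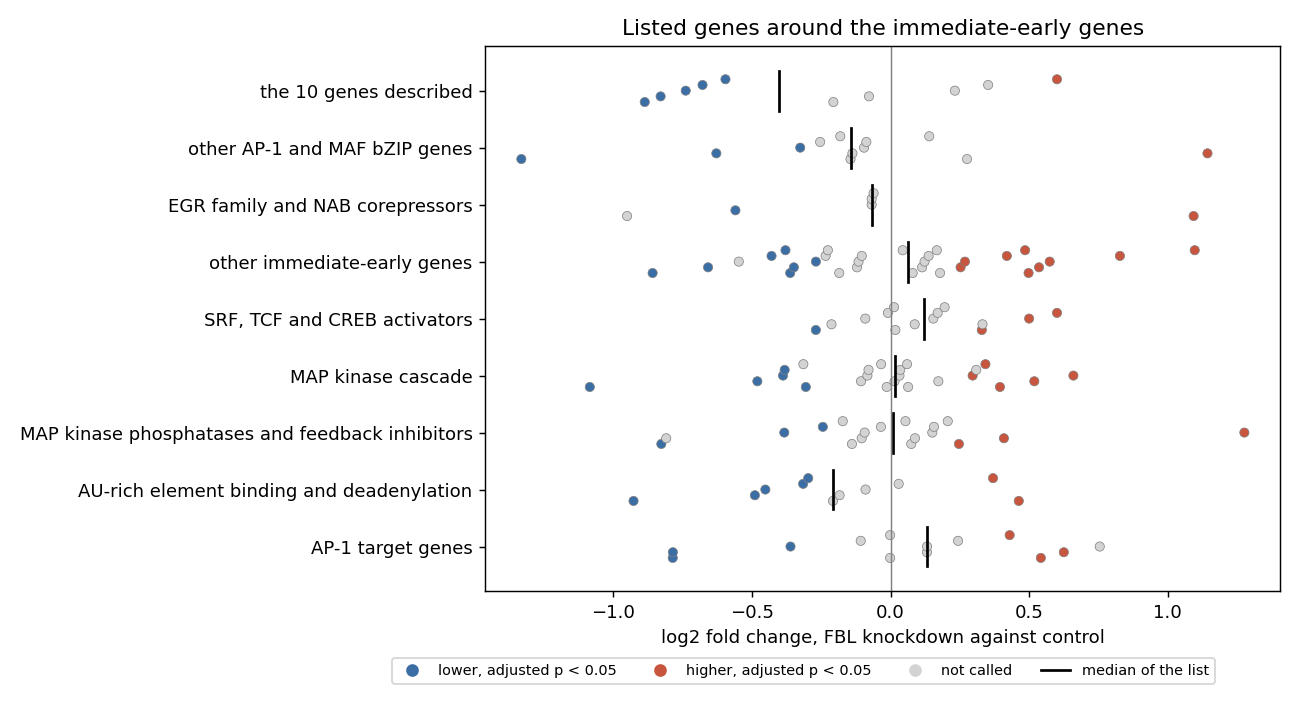
Log2 fold change (horizontal axis, FBL knockdown against control) of each tested gene in the 8 lists and of the 10 genes described; blue and red points passed an adjusted p of 0.05, grey points did not, and black bars are list medians. The median of the 10 genes lies at -0.40, and the list medians lie between -0.21 and 0.13.

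The genes whose level followed these factors most closely within groups were sought among 7209 genes of at least 10 CPM, by Pearson correlation of log2 CPM over the 6 libraries after each group's mean was subtracted. For FOS they were FOXD1, POM121B and NOTCH1 (0.996 or more), and for JUN they were FAM214B, XBP1 and ZNF503 (0.982 or more). For EGR1, among 7208 genes, the nearest were an unnamed row (ENSG00000279035), EMC10 and OCEL1 (0.997 or more). With 6 libraries that share their depth and GC differences, such values are a description. Between groups, where JUN was at -0.60, XBP1 was at -0.58, ZNF503 at -0.39 and FAM214B at 0.67 (log2 fold change). Where FOS was at 0.23, FOXD1 was at 0.68, NOTCH1 at 0.59 and POM121B at -0.31. Where EGR1 was at -0.89, EMC10 was at 0.33, ENSG00000279035 at 0.06 and OCEL1 at 0.03.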

How the data were processed

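Messenger RNA of 6 Kasumi-1 libraries (3 control, 3 FBL knockdown) was analysed. The authors deposited whole-number counts per gene with gene lengths, and RPKM values. Per the submitters' processing notes, cutadapt 1.18, HISAT2, featureCounts, edgeR and GRCh38 were used; annotation release and strand setting: not given in the sources used here. The deposited RPKM values were recomputed from counts, lengths and TMM-scaled totals, and 191796 of 191796 fell within a relative tolerance of 1e-06, so both tables hold the same measurement.

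Counts were filtered with filterByExpr (minimum count 10, minimum total 15), scaled by TMM and tested with edgeR's quasi-likelihood test (glmQLFit, glmQLFTest) on group alone in R 4.3.3 (edgeR 4.0.16; DESeq2 1.42.0 and limma 3.58.1 for alternatives), with Benjamini-Hochberg adjustment over all genes and a threshold of 0.05. SE and 95% intervals come from the F statistic. The procedure was tested on simulated counts drawn from the mean level of each gene, without the GC differences between libraries. That simulation cannot show how the test behaves where such differences are present. Single values per library were compared by exact permutation over samples. Positions, exon counts (of the longest transcript), overlaps and GC content come from GENCODE release 29 on GRCh38. Of the tested genes, 18439 had a GC value. Promoters come from RefSeq on GRCh38.p14.

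The 10 genes, the 8 lists and the tests were chosen with earlier results of these data known. All 10 genes were named. Each list gave up to 3 called genes of 1 CPM or more, by size of change, and FOS, JUN and EGR1 each the 3 genes most like them. The alternatives were other scalings, filters and tools, the GC correction (lowess of each library's log2 deviation on GC), a replicate block, limma-trend on log2(RPKM + 1) and log2(RPKM + 0.1), which understates changes of low genes, and omission of each library. The legacy dispersion of edgeR was added after the data were seen.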

Additional observations from a re-analysis of the deposited data

How the results depend on the processing

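EGR1, IER2, FOSL2 and JUN passed as lower in all 20 alternatives, with log2 fold changes from -0.995 to -0.71, -0.94 to -0.70, -0.80 to -0.61 and -0.66 to -0.43. JUNB lost its call in 7 and FOSB in 3 of those that tested them, without a change of direction. IER3 changed direction without control replicate 2 (0.13) and without FBL knockdown replicate 1 (0.003), never near the threshold. The count of the 10 genes called higher, 1 in the reported fit, was 2 under upper-quartile scaling, with library size only, with DESeq2, with limma voom and with the replicate block plus GC correction, and 3 with GC correction. It ranged from 0 to 3 with each library left out, being 0 without control replicate 3 and without FBL knockdown replicate 1 or 2. The count called lower was 4 or 5 in all settings. Over all genes, 6061 were called, and leaving out each library gave 3923 (without FBL knockdown replicate 2) to 6943, and 4017 without FBL knockdown replicate 3; 1861 (without FBL knockdown replicate 2; 1909 without control replicate 3) to 3298 were higher and 1835 (without FBL knockdown replicate 3; 2062 without FBL knockdown replicate 2) to 3645 lower. The GC correction gave 8484 called genes (4179 higher, 4305 lower), and the replicate block with GC correction 7872 (3890 higher, 3982 lower). The stricter filter called 4055 of 9176 genes tested, 1923 higher and 2132 lower. It did not test FOSB or IER3, and its 1 higher gene of the set was JUND. The difference in the 10 genes' share of counts ranged from -46.2 to -18.5 CPM with each library left out; the smallest difference was without control replicate 2.

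Replicate numbers are shared by both groups, but nothing in the labels ties same-numbered samples together, and the correlations of same-numbered deviations were -0.28, -0.20 and 0.04, so the numbers were not taken as pairs. The replicate block gave 3833 called genes (1846 higher, 1987 lower) and 5 of the 10 genes, with JUNB lost at an adjusted p of 0.0567, and 0 of 3 numbers matched best with themselves. Causes of these differences were not tested. IER3 had 51 to 82 counts per library, the fewest of the 10 genes.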
